A study of Mus musculus with 34 samples.

Results

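The promoter STAT5 sites are 1248 of the 8185 STAT5 peaks (15.2%) called in CTCF-WT bone marrow-derived dendritic cells (BMDCs). They were chosen by 3 properties. Each was a STAT5 peak of CTCF-WT cells not treated with LPS, none overlapped a p65 (RelA) peak of LPS-treated CTCF-WT cells, and each overlapped the region within 2500 bp of where the longest transcript of an annotated gene starts. The STAT5 peaks of CTCF-WT cells, the p65 peaks after LPS and the positions of start sites were therefore selected on, whereas STAT5 peaks of CTCF-KO cells, histone marks, CTCF, the cohesin subunit SMC1 and the DNA sequence were not. Of 1517 STAT5 peaks at promoters, 269 were left out because p65 overlapped them after LPS. The remaining STAT5 peaks served for comparison. They comprised 2700 distal peaks with H3K27ac, 2760 distal peaks without H3K27ac and 1477 peaks that carried p65 after LPS.

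Chromatin immunoprecipitation and sequencing (ChIP-seq) was performed on BMDCs grown for 6 days with GM-CSF from the bone marrow of C57BL/6 mice aged 8 weeks. CTCF-WT cells carried CreER alone and CTCF-KO cells carried CreER together with CTCF fl/fl alleles. Both received 4-OH tamoxifen on the first day, so the Cre recombinase and the drug were common to all groups. The Cre is expressed from the Rosa26 locus and is not restricted to dendritic cells, and CTCF was deleted in culture during differentiation rather than in mature cells. For STAT5, cells were restimulated with GM-CSF for 15 min. The other antibodies were used on unstimulated cells (WT and KO) and on cells treated with 100 ng/ml LPS for 3 h (WTLPS and KOLPS). Peaks were supplied as 1 list per antibody and condition, 30 lists with 1393623 peaks in all. No replicate lists were used, so no difference between conditions had a replicate check. Intervals given below are 95% Wilson intervals for a share, Newcombe intervals for a difference between classes of sites, or paired normal intervals for a change at the same sites, and cover counting error only.

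STAT5 is the transcription factor activated by GM-CSF. Binding of GM-CSF to its receptor activates the kinase JAK2, which phosphorylates STAT5. Phosphorylated STAT5 forms dimers, enters the nucleus and binds palindromic sites with the letters TTCNNNGAA. Its target genes include cytokine receptors, survival and cell cycle genes, and the inhibitors that shut the pathway off, such as Cish and Socs3. H3K4me3 marks active or poised start sites, H3K27ac active promoters and enhancers, and H3K4me1 enhancers and the flanks of promoters. CTCF and the cohesin complex, to which SMC1 belongs, together shape chromatin loops.

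Fewer peaks were called in KO than in WT for several antibodies. The lists held 60537 CTCF peaks in WT and 20151 in KO, 63638 and 29965 SMC1 peaks, and 8185 and 6850 STAT5 peaks. A difference in the share of sites overlapped by a peak can thus reflect the number of peaks in a list as well as binding at the sites, and the part of each was not tested. H3K4me3 lay at 18 of 20 promoters of dendritic cell marker genes in WT and at 17 in KO, compared with 2 of 10 for T cells, 3 of 10 for B cells, 1 of 8 for NK cells, 4 of 11 for neutrophils, 3 of 14 for mast cells, 3 of 9 for erythroid cells and 4 of 10 for fibroblasts. Among the promoter sites, 25 lay where the local background exceeded 10 times that of the library, as occurs where reads of repeats pile up. Of these 25 sites, 18 lay on chromosome 9. They were recognised after the values were seen, and shares that they moved are given without them as well.

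The sequences at the sites show what the peaks were centred on. The windows below run 50 bases to either side of the summit on the plus strand of mm10, with each TTCNNNGAA in capitals. The first 5 belong to strong sites with H3K4me3 at a protein-coding promoter, next come 5 sites at genes of the GM-CSF and cytokine pathway, then 2 sites whose STAT5 peak was absent in KO, and last 2 sites at which CTCF was called in WT and not in KO.
Socs3 (chr11:117969222-117969322): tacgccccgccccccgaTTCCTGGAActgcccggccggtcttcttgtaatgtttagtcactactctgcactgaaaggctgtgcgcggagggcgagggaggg
Fcgr1 (chr3:96294007-96294107): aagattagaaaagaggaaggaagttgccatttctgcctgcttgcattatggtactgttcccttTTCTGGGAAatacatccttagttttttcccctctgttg
Unk (chr11:116029436-116029536): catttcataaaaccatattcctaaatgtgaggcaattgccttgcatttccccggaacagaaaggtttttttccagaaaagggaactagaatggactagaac
Ccl17 (chr8:94810263-94810363): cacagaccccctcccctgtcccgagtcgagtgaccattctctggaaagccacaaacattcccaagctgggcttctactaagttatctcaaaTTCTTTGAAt
Mmp12 (chr9:7345563-7345663): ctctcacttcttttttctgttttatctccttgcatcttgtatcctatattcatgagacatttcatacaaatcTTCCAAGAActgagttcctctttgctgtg
Il10ra (chr9:45268162-45268262): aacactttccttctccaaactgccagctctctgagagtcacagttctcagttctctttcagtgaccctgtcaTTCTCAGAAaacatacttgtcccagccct
Il4ra (chr7:125554596-125554696): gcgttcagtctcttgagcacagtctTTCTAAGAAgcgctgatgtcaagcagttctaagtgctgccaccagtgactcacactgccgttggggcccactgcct
Socs1 (chr16:10787542-10787642): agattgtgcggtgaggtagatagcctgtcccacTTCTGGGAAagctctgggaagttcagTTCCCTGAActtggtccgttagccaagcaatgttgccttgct
Cish (chr9:107298221-107298321): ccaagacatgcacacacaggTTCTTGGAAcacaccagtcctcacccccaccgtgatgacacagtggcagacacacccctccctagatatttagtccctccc
Jak2 (chr19:29252932-29253032): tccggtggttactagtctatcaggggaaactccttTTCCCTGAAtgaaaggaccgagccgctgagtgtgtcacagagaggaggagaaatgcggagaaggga
AC154187.2 (chr17:70958464-70958564): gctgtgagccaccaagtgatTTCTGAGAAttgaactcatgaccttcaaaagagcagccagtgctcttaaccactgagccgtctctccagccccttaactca
Mrpl11 (chr19:4961862-4961962): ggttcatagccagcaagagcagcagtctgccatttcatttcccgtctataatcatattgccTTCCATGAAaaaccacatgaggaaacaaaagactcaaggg
Gm42601 (chr5:96879161-96879261): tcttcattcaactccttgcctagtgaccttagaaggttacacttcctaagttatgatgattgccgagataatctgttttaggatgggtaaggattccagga
Gm44921 (chr7:3570789-3570889): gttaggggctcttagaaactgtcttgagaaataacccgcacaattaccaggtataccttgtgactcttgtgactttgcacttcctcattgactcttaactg
Windows that touched an annotated untranslated region were shortened to 29 bases around the motif. They are shown for the paired receptor genes Csf2rb and Csf2rb2, the start of Bcl6 (Gm37419 in the annotation used), and Osm.
Csf2rb (chr15:78325930-78325958): atgtccacaaTTCTGAGAAtcaggcgaag
Csf2rb2 (chr15:78305718-78305746): ctttgcttgcTTCTCAGAAttgtggacac
Gm37419 (chr16:23988579-23988607): tgtccggcctTTCCTAGAAacttcttgca
Osm (chr11:4236716-4236744): tggggtcatgTTCCCAGAAggcctgccct
The Socs1 window held 2 motifs, whereas the windows at Unk, Gm42601 and Gm44921 held none. The Csf2rb summit window and the matching stretch of Csf2rb2, read on the other strand, were identical at 93.1% of their bases, so reads from these neighbouring copies may have been divided between them and their separate strengths are uncertain.

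The sites were not confined to the start itself. Summits lay at a median of 1052 bp from the nearest start (quartiles 427 and 1798 bp), and 660 of 1248 (52.9%) were upstream of it. Within 250 bp lay 215 sites (17.2%), between 250 and 1000 bp lay 388 (31.1%), and 645 (51.7%) lay farther out. The 250 bp directly upstream of starts held the most sites, 129, against 50 in the outermost upstream bin and 43 in the outermost downstream bin, as the plot of sites around start sites shows. Because the promoter window was part of how the sites were chosen, this spread describes them and was not tested.

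**Figure D1:**
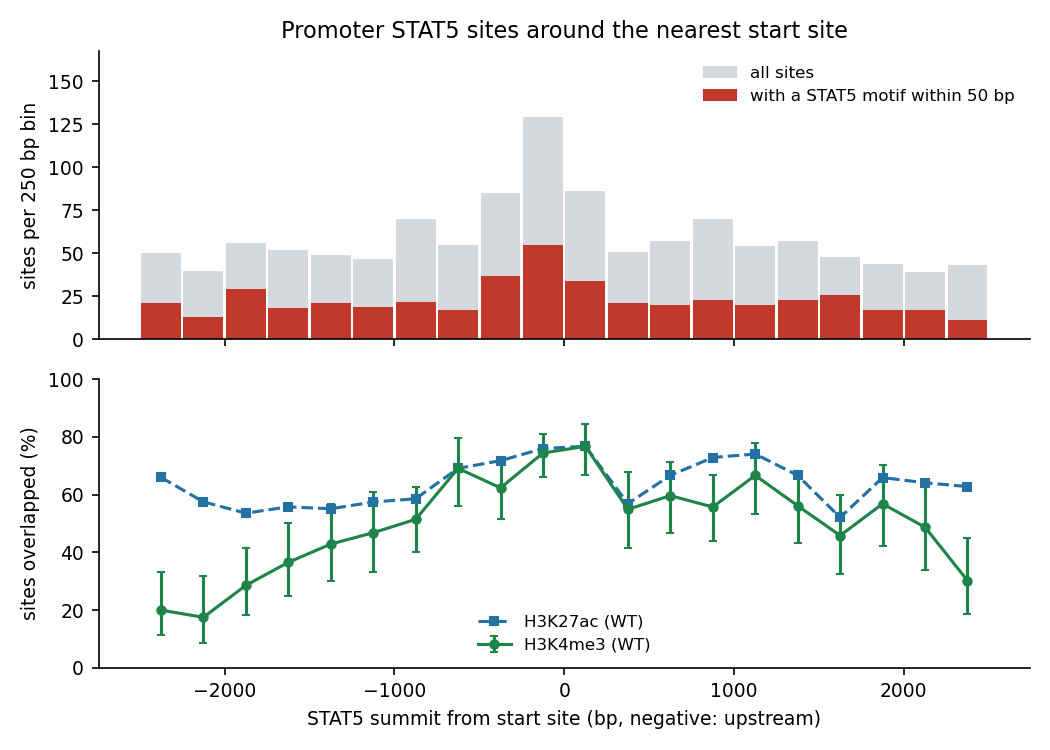
Promoter STAT5 sites in 250 bp bins of the distance from STAT5 summit to the nearest start site (upper panel, count of sites, those with a STAT5 motif in red), and the percentage of sites in each bin overlapped by WT H3K4me3 (green, with 95% Wilson intervals) or WT H3K27ac (blue). Sites were most numerous at -250 to -1 bp (129), and the H3K4me3 share fell from 76.7% just downstream of the start to 10 of 50 sites and 30.2% in the outermost bins. The 66 sites with a summit beyond 2500 bp are not drawn.

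Altogether the sites overlapped the promoters of 1388 genes, of which 743 were protein-coding, 162 lincRNA, 110 processed pseudogenes, 97 transcripts of the class TEC, 91 antisense transcripts and 42 miRNAs. A protein-coding promoter was met by 761 sites (61.0%, 58.2 to 63.6). The 743 genes were 3.39% of all 21938 protein-coding genes, and 660 of them were among the 12431 with H3K4me3 at the promoter in WT (5.31%). At 232 sites the peak overlapped promoters of more than 1 gene, as at the Socs1 and Tnp2 promoters or the Unk and H3f3b promoters, and 108 genes had more than 1 site. The sites therefore count pairs of neighbouring genes that cannot be separated by position.

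Promoter sites covered a wide range of strength. Their fold enrichment over local background at the summit ran from 1.55 to 52.8 with a median of 7.30 (quartiles 5.58 and 10.8), and the median over all STAT5 peaks was 7.73. The median -log10 q was 10.6 in both. The median was 8.16 at distal peaks with H3K27ac, 6.87 at those without and 8.59 at peaks with p65 after LPS. A typical promoter site rested on few fragments, with a median of 17 at the summit outside pile-up sites, as over all STAT5 peaks. Peak width was similar, at a median of 343 bp compared with 351 bp over all STAT5 peaks.

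TTCNNNGAA was found within 50 bp of the summit at 495 promoter sites (39.7%, 37.0 to 42.4), compared with 37.9% of all STAT5 peaks. Windows of the same length placed 1 kb to either side of the summits held it in 98 of 2496 cases (3.93%), and windows centred on the start sites of all annotated genes in 2.60%. Promoter sites and distal peaks with H3K27ac held the motif about equally often, with a difference of 0.03 points (-3.23 to 3.33). Compared with distal peaks without H3K27ac the difference was -3.49 points (-6.75 to -0.19), and compared with peaks with p65 after LPS it was 16.4 points (12.9 to 19.8). The letters are palindromic, so both strands are read in 1 pass.

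The share with the motif rose with the strength of the peak, from 27.4% in the weakest 416 sites to 38.2% in the middle and 53.4% in the strongest 416. It was similar with H3K4me3 (40.3%) and without (38.9%), and similar within 250 bp of a start (41.4%) and beyond 1000 bp (41.2%). The centre of the motif lay at a median of 22 bp from the summit, and 39 sites held more than 1 motif. The most frequent form was TTCCAGGAA, with 114 occurrences (21.3%), followed by TTCCCAGAA with 71 (13.2%) and TTCTCAGAA with 68 (12.7%). The last of these forms lies in the windows of Il10ra and Csf2rb2 printed above.

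**Figure D2:**
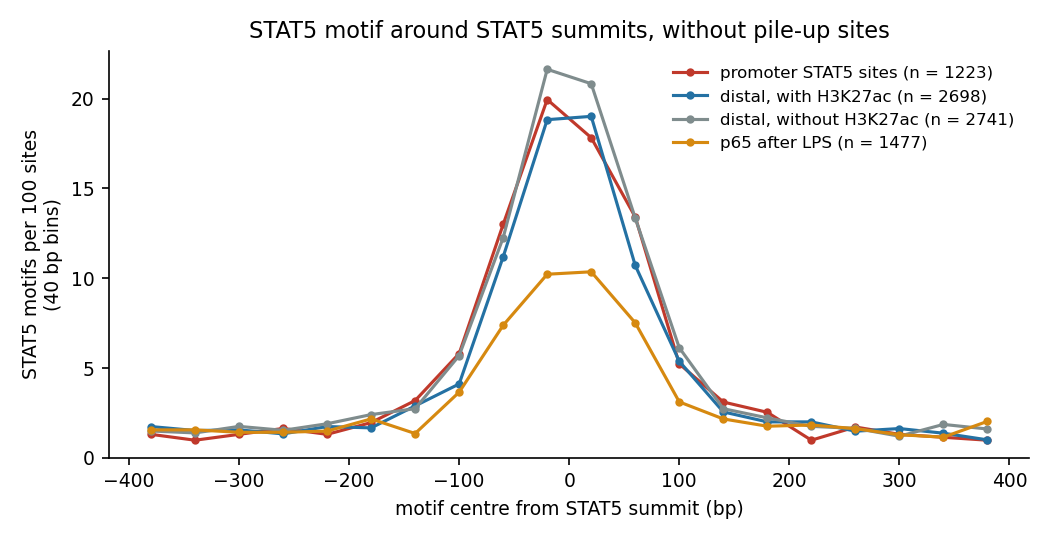
STAT5 motifs per 100 sites in 40 bp bins of the distance from STAT5 summit to motif centre, for promoter sites, distal peaks with and without H3K27ac and peaks with p65 after LPS, without pile-up sites. The promoter line peaks at the summit close to the lines of both distal classes and returns to the flanking level within 200 bp, whereas the line for peaks with p65 peaks lower.

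Other promoter motifs were searched in the same windows on both strands. GGGCGG, the SP/KLF box of many GC-rich promoters, was present at 4.17% of promoter sites compared with 26.6% of windows at protein-coding start sites and 4.53% of the flanking windows. The share fell with distance, from 7.91% of sites within 250 bp of a start to 5.93% between 250 and 1000 bp and 1.86% beyond. Windows centred on coding starts are thus an unlike comparison for most sites. GAGGAAG, a core of PU.1 sites, was found at 9.05% compared with 3.65% of flanking windows and 5.40% of coding start sites. TGANTCA, the AP-1 site, was found at 7.21% compared with 2.52% of flanks and 1.86% of coding start sites. At distal peaks with H3K27ac the same 3 motifs stood at 1.74%, 9.22% and 9.04%. GAGGAAG and TTCNNNGAA can share their last bases, and such overlaps were counted for both.

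Genes of the GM-CSF and cytokine receptor pathway were among those with a site. Of 28 listed receptors, JAK kinases and STATs, 9 had one, compared with 3.39% of all protein-coding genes and 5.31% of those with H3K4me3 in WT. Csf2rb, the common beta chain of the GM-CSF, IL-3 and IL-5 receptors, had the strongest, with a fold of 31.4 in WT and 22.6 in KO at 180 bp downstream of its start. At its near-identical copy Csf2rb2 the values were 10.7 and 10.4. Il10ra, the ligand-binding chain of the IL-10 receptor, had a fold of 27.1 in WT and 21.1 in KO, and Il4ra, shared by the IL-4 and IL-13 receptors, 21.0 and 19.97. All 4 receptor sites were thus present in both genotypes, as were 95.2% of the strongest 416 promoter sites.

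The remaining sites of this list had folds of 11.6 or less in WT. At Ifnar2, a chain of the type I interferon receptor, the fold was 11.6 in WT and 6.66 in KO, and at Ifngr2, a chain of the interferon-gamma receptor, 6.01 and 6.29. Csf1r, the M-CSF receptor, held a site 1955 bp downstream of its start with a fold of 5.05 and 4.44, and it was the only site of the list with CTCF in WT, which was not called in KO. At Jak2, the kinase of the GM-CSF receptor, a fold of 5.15 from 11 fragments in WT had no counterpart in KO although the window held a motif. At Stat5a itself a fold of 4.30 from 9 fragments, the lowest of the named sites, was also without a KO peak and without a motif. The Jak2 and Stat5a sites rested on 11 fragments or fewer in WT, so a missing KO peak there does not show missing binding at this depth.

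Inhibitors of the pathway formed the second group. Of 20 listed genes 5 had a site, compared with 3.39% of all protein-coding genes and 5.31% of those with H3K4me3 in WT. Socs3, which blocks JAK kinases, held one of the strongest sites of all, 86 bp upstream of the start, with a fold of 41.7 from 96 fragments in WT and 23.3 from 62 in KO, and CTCF was called there in both. Socs1, a related JAK inhibitor, had 3 sites. The one 2056 bp upstream, with the pair of motifs printed above, stood at 22.3 in WT and 9.83 in KO, and both CTCF and SMC1 were called there in WT and not in KO. At 696 bp upstream the fold was 8.59 in WT and 7.77 in KO, with CTCF in both, and at 2144 bp downstream it was 7.30 in WT with no KO peak.

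Cbl, a ubiquitin ligase that downregulates receptors, had a fold of 18.9 in WT and 20.3 in KO. Cish, the first of the SOCS family and a classical STAT5 target, had a weaker site within its gene, 1364 bp downstream of the start, with 6.87 from 15 fragments in WT and no KO peak. Ptpn11, the phosphatase SHP2, stood at 5.15 from 11 fragments with no KO peak. Every site of the inhibitor genes except the Socs1 site 2056 bp upstream overlapped H3K4me3 in WT.

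Of 40 genes listed as STAT5 targets, 10 had a site, Cish among them. This compares with 3.39% of all protein-coding genes and 5.31% of those with H3K4me3 in WT. Ccl17, a chemokine of dendritic cells that attracts CCR4-bearing T cells, had a fold of 34.8 from 80 fragments in WT and 22.6 from 60 in KO at 140 bp upstream of its start, and SMC1 was called there in WT and not in KO. Osm, the cytokine oncostatin M, had 2 sites of 22.3 and 5.15 in WT, both overlapped by the same KO peak with a fold of 13.3. Bcl2l1, which encodes the survival protein BCL-XL, had 10.7 in WT and 6.66 in KO, and CTCF there was called in WT and not in KO.

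At Il2ra, the alpha chain of the IL-2 receptor, the fold was 8.84 in WT and 10.03 in KO without H3K4me3. The cyclin gene Ccnd2 had 6.44 and 5.55 without H3K27ac, and the stress-response gene Gadd45g had 6.44 and 4.81. Irf8, a transcription factor of dendritic cell development, had 6.01 from 13 fragments in WT 286 bp upstream of its start and no KO peak. Runx1, a haematopoietic transcription factor, with 2 sites of 6.01 and 5.15, and Xbp1, a regulator of the unfolded protein response, with 4.72, had no KO peak either.

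Over these 3 lists there were 27 sites. A KO peak was present at 18 of them, a motif at 17, H3K4me3 at 25 and H3K27ac at 26. Over all STAT5 peaks these shares were 64.8%, 37.9%, 20.8% and 57.4%. At the sites of protein-coding promoters they were 64.4%, 38.5%, 71.6% and 72.7%. SMC1 was called at 19 sites in WT and 18 in KO, and CTCF at 5 in WT and 2 in KO. Over all STAT5 peaks SMC1 stood at 58.4% in WT and 50.5% in KO, and CTCF at 9.55% and 3.47%. The fold was lower in KO at 14 of the 18 sites with a KO peak, compared with 72.0% of all kept promoter sites outside pile-ups. The weakest site that was called again in KO had a fold of 5.05 in WT and the strongest that was not had 7.30, so the kept and lost sites overlapped in strength only at its lower end.

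The strongest STAT5 peak at a protein-coding start with H3K4me3 was at Bcl6, a transcriptional repressor. The peak (chr16:23988105-23989815) had a fold of 52.0 from 120 fragments in WT and 53.2 from 143 in KO. It covered the start of the principal Bcl6 transcript at position 23988852, 287 bp from the summit. The rule assigned it to the overlapping transcript Gm37419, because another Bcl6 transcript has longer exons (3933 compared with 3525 bases) and starts elsewhere. With every annotated transcript start counted as a promoter, 17 of the 40 target genes had a site, the additions including Socs2, Pim1, Ccnd3, Bcl6 and Cdkn1a, and the receptor and kinase list rose to 11 genes with Tyk2 and Il6st, and the inhibitor list to 9 with Socs2, Ptpn1, Pias1 and Sh2b3. Under that definition 1156 of all protein-coding genes (5.27%) had a site.

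Other strong sites with H3K4me3, outside pile-ups, were at genes of varied function. Fcgr1, the high-affinity IgG receptor, had a fold of 38.2 in WT and 25.9 in KO without H3K27ac. Unk stood at 35.6 and 31.8, Mmp12, the macrophage elastase, at 34.8 and 26.6, and Ubash3b, a phosphatase that dampens tyrosine kinase signalling, at 33.9 and 26.99. Zfp983 had 33.1 and 34.0, and Il7r, the IL-7 receptor alpha chain, 32.6 and 26.6. The 10 strongest sites of this kind, which include Socs3, Ccl17 and the Bcl6 start, were all called in KO, 8 of them with a lower fold, and 8 held a motif. They were picked for high WT values. Of the strongest 416 promoter sites 95.2% were called in KO and 53.4% held a motif. Among all kept promoter sites outside pile-ups 72.0% were lower in KO. By -log10 q alone, the strongest sites with H3K4me3 were pile-ups at predicted genes such as Gm10717, Gm10718 and Gm10800, with folds of only 4.79 to 14.4.

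Some of the strongest sites had no H3K4me3. At protein-coding promoters these were Itgae, the integrin CD103 of dendritic cell and T cell subsets, with a fold of 37.4 in WT and 25.1 in KO, Alpk2 with 33.5 and 26.99, Slfn1, a Schlafen family gene, with 32.8 and 11.2, Afg1l with 32.2 and 29.2, and Naaa, a lysosomal amidase, with 31.8 and 24.8. At predicted genes without H3K4me3, the highest folds outside pile-ups were those of Gm43855 with 52.8 in WT and 35.5 in KO and Gm47596 with 50.3 and 32.2. Gm40645 stood at 49.8 and 48.4 and Gm25669 at 47.2 and 35.1. All 9 of these sites were lower in KO, but they were picked for high WT values, and 72.0% of all kept promoter sites outside pile-ups were lower in KO.

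Other gene groups were represented by few members, and the counts kept in KO are read against the 64.8% of all STAT5 peaks that were. Among 51 NF-kB and Toll-like receptor genes 8 had a site and 5 of these genes kept one in KO, the strongest being Ripk2, a kinase of NOD signalling, with 22.8 in WT and 18.1 in KO, and Traf6, the ubiquitin ligase of the pathway, with 15.0 and 9.98. Among 37 antigen presentation genes 5 had a site and all 5 were kept. Cd274 and Pdcd1lg2, which encode the PD-1 ligands, had 15.9 and 15.5 in WT and 11.5 and 13.7 in KO, and Icosl, a costimulatory ligand, had 13.9 and 12.2 with CTCF in WT only. Of 38 chemokine and cytokine genes 4 had a site and all were kept, including Il15 with 12.5 in WT and 14.8 in KO and Ccl2 with 7.73 and 5.55.

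Of 46 myeloid transcription factor genes 9 had a site and 5 kept one. Nfil3, needed for conventional dendritic cell development, had 10.3 in WT and 9.24 in KO, and Batf3, a factor of cross-presenting dendritic cells, had 2 sites, of which one (7.73 and 7.77) was called in both genotypes and had CTCF in WT only, and the other (6.32) was called in WT only. Cell cycle and survival genes had a site in 3 of 39 cases and dendritic cell markers in 6 of 20. Among marker genes of other lineages, 1 of 10 for B cells (Vpreb1), 1 of 9 for erythroid cells (Hbb-bt, with 21.0 in WT and 23.7 in KO) and none for T cells, NK cells, neutrophils, mast cells and fibroblasts had one. A site was present at 3.39% of all protein-coding genes and at 5.31% of those with H3K4me3 in WT. H3K4me3 lay at 46 of 51 NF-kB and Toll-like receptor genes, 44 of 46 myeloid transcription factor genes, 36 of 37 antigen presentation genes and 38 of 39 cell cycle and survival genes. For these lists 5.31% is thus the nearer level. Most marker genes of each other lineage lacked H3K4me3, so the scarcity of sites there says little. Expressed genes were not separated from silent ones.

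Active marks covered most promoter sites without covering all. H3K4me3 was called at 652 sites in WT (52.2%, 49.5 to 55.0) compared with 20.8% of all STAT5 peaks, and H3K27ac at 814 (65.2%, 62.5 to 67.8) compared with 57.4%. The H3K4me3 share exceeded that of distal peaks with H3K27ac by 32.9 points (29.7 to 36.0) and that of peaks with p65 after LPS by 27.5 points. The H3K27ac share differed from that of peaks with p65 after LPS by -14.7 points (-18.1 to -11.4). H3K4me1 was called at 75.9% of promoter sites compared with 90.4% of all STAT5 peaks, and the repressive mark H3K27me3 at 42 sites (3.37%) compared with 2.41%.

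**Figure D3:**
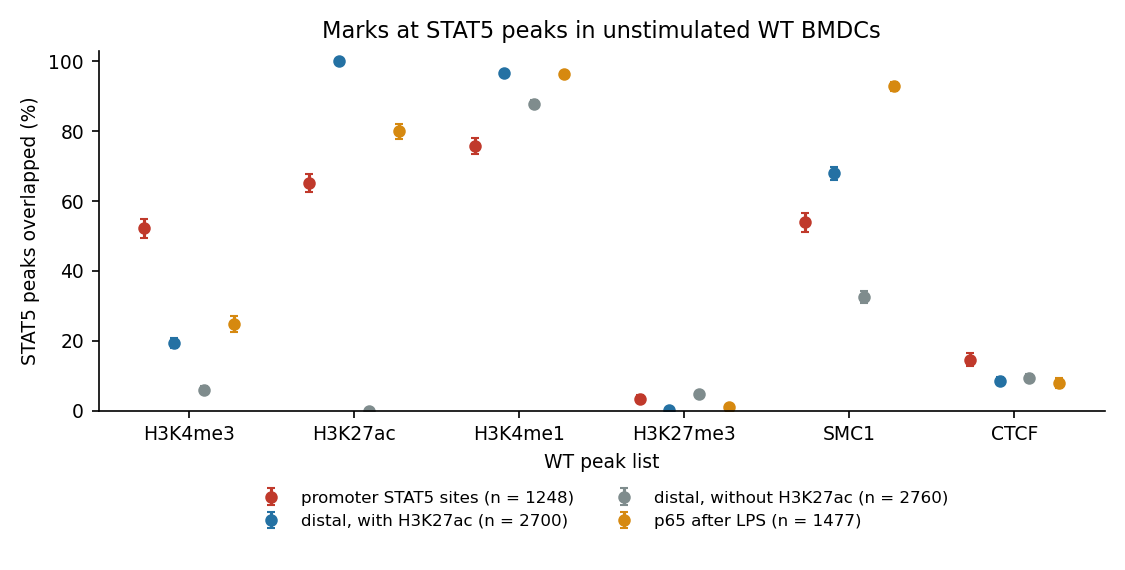
Percentage of STAT5 peaks overlapped by each WT peak list, for promoter sites, distal peaks with and without H3K27ac (a split made on that mark) and peaks with p65 after LPS, with 95% Wilson intervals. Promoter sites had the highest shares of H3K4me3 (52.2%) and CTCF (14.6%) and the lowest of H3K4me1 (75.9%), and their SMC1 share (53.9%) lay between those of both distal classes.

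Both marks followed the distance to the start. H3K4me3 was called at 75.3% of sites within 250 bp, 58.8% between 250 and 1000 bp and 40.6% beyond, and H3K27ac at 76.3%, 66.5% and 60.8%. H3K4me1 ran the other way, at 57.7%, 70.4% and 85.3%. In combination, 532 sites (42.6%) carried H3K4me3 and H3K27ac, 282 (22.6%) H3K27ac alone, 120 (9.62%) H3K4me3 alone and 314 (25.2%) neither. H3K27me3 was called at 12.5% of the sites with H3K4me3 alone. Sites with neither active mark were thus more numerous than those with H3K4me3 alone.

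The promoters themselves were also compared. Among the 12431 protein-coding promoters with H3K4me3 in WT, the 660 with a site carried H3K27ac in 91.8% of cases (89.5 to 93.7) compared with 73.0% of the 11771 without (72.2 to 73.8). SMC1 was called at 76.4% of them (73.0 to 79.4) compared with 44.2%, and CTCF at 48.0% (44.2 to 51.8) compared with 41.6%. H3K27me3 was called at 12.3% compared with 24.7%. Promoters with a STAT5 site thus carried SMC1 and H3K27ac more often and H3K27me3 less often, whereas CTCF differed less. The promoters without a site include those of genes that STAT5 peaks with p65 overlapped, and expression was not matched.

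CTCF overlapped few of the sites and SMC1 most of those with H3K27ac. CTCF was called at 182 promoter sites in WT (14.6%, 12.7 to 16.7), compared with 9.55% of all STAT5 peaks, and its share exceeded that of distal peaks with H3K27ac by 6.18 points (4.02 to 8.47). SMC1 was called at 673 sites (53.9%, 51.2 to 56.7) compared with 58.4% of all STAT5 peaks. Its share differed from that of distal peaks with H3K27ac by -14.0 points (-17.3 to -10.7) and from that of distal peaks without by 21.4 points. Within the promoter sites SMC1 was called at 64.1% of those with both marks and 63.5% of those with H3K27ac alone, and at 34.1% of those with neither.

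In KO cells CTCF was called at 91 sites (7.29%, 5.98 to 8.87) compared with 3.47% of all STAT5 peaks, and at 68 sites (5.56%) without pile-ups. Of the 182 sites with CTCF in WT, 73 kept it (40.1%, 33.3 to 47.4), 109 lost it and 18 further sites had CTCF in KO only, a change of -7.29 points (-9.01 to -5.57). Pile-up sites contributed to the kept share. Without them 53 of 161 sites kept CTCF (32.9%, 26.1 to 40.5), compared with 29.1% (25.2 to 33.4) at distal STAT5 peaks. The sites with CTCF in WT only, ranked by STAT5 strength, were led by Gm42601 with a STAT5 fold of 30.9 in WT and 16.3 in KO, Cdc20b, next to the Mir449 cluster, with 26.6 and 19.97, Gm44921 with 26.6 and 19.2, 9530052E02Rik with 23.6 and 16.3, and Cdk5rap1 with 23.6 and 19.97. STAT5 was called in KO at all 5, with a lower fold at each. These sites were picked for high WT values, and of the strongest 416 promoter sites 95.2% were called in KO, and 72.0% of all kept promoter sites outside pile-ups were lower there.

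SMC1 in KO was called at 585 sites (46.9%, 44.1 to 49.6) compared with 50.5% of all STAT5 peaks. Of the 673 sites with SMC1 in WT 518 (77.0%) kept it, compared with 73.3% at distal peaks, and the change in share was -7.05 points (-9.36 to -4.74). With each SMC1 list limited to its stronger 50% of peaks, the share was 33.2% in WT and 33.2% in KO. The stronger 50% holds more peaks in WT than in KO, since the lists differ in size. After LPS the genotypes lay farther apart. SMC1 was called at 652 sites in WTLPS (52.2%, with 57.7% of all STAT5 peaks) and 419 in KOLPS (33.6%, with 40.2%), a change of -18.7 points (-21.2 to -16.2). CTCF was called at 159 sites in WTLPS (12.7%, with 8.16% of all) and 63 in KOLPS (5.05%, with 2.47%). Without pile-up sites these CTCF shares were 11.3% and 3.19%.

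H3K4me3 at the sites barely moved between the unstimulated genotypes. It was called at 650 sites in KO (52.1%, with 19.7% of all STAT5 peaks), with 51 sites lost and 49 gained, a change of -0.16 points (-1.73 to 1.41). H3K27ac was called at 751 sites in KO (60.2%, with 51.6% of all), a change of -5.05 points (-7.36 to -2.74). Of the sites with each mark in WT, 92.2% kept H3K4me3 and 82.7% kept H3K27ac, whereas distal peaks kept 70.8% and 70.5%. Promoters without a site were as stable. Among protein-coding promoters with H3K4me3 in WT, 98.5% of those with a site and 98.1% of those without had it in KO. H3K27ac was called at 91.8% in WT and 92.4% in KO with a site, and at 73.0% and 74.2% without. In WTLPS H3K4me3 was called at 49.9% (with 18.1% of all) and H3K27ac at 60.9% (with 55.3%). In KOLPS they stood at 44.2% (with 13.5%) and 52.2% (with 45.0%).

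The KOLPS lists were the smallest for H3K4me3, with 20960 peaks against 25460 in KO, and for SMC1, with 17241 against 29965. The part of the list sizes in these differences was not tested.

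**Figure D4:**
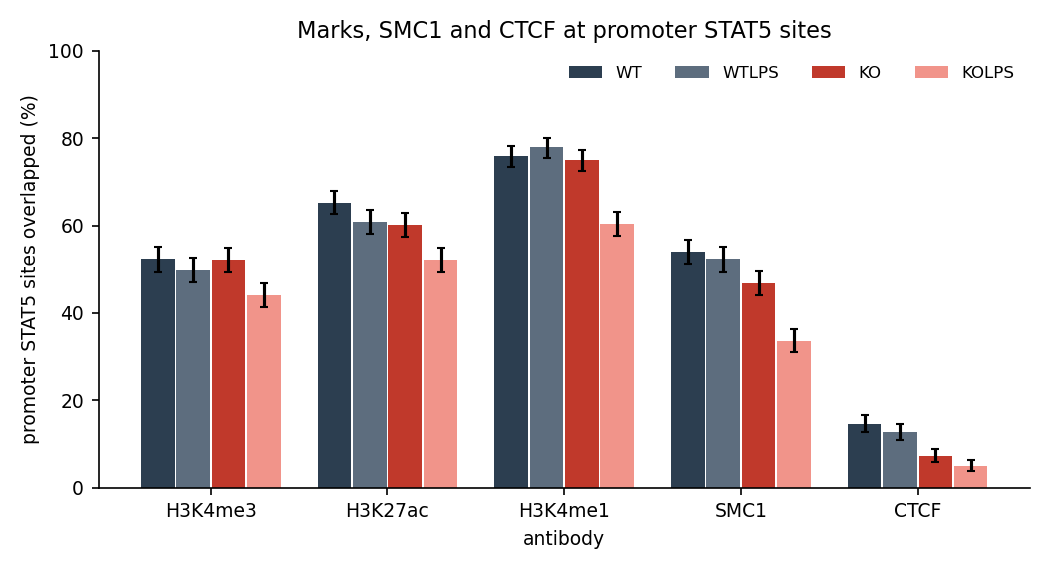
Percentage of the 1248 promoter STAT5 sites overlapped by a peak of each antibody in WT, WTLPS, KO and KOLPS, with 95% Wilson intervals and 1 list per bar. CTCF was called at 14.6% of sites in WT and 7.29% in KO, SMC1 fell to 33.6% in KOLPS, and H3K4me3 was at 52.2% in WT and 52.1% in KO.

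STAT5 itself was called again in KO at 797 promoter sites (63.9%, 61.2 to 66.5), close to the 64.8% of all STAT5 peaks. The difference from distal peaks with H3K27ac was -3.69 points (-6.91 to -0.52), from distal peaks without H3K27ac 5.06 points (1.80 to 8.26), and from peaks with p65 after LPS -7.84 points (-11.3 to -4.32). Without pile-up sites it was 776 of 1223 (63.5%). The KO library had the higher background, with 1.70 fragments compared with 1.33 in WT. Thinning the KO fragment counts to the WT coverage gave an expected retention of 62.7% at promoter sites and 63.5% over all STAT5 peaks.

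Whether a site was called again followed its strength in WT. In the weakest 416 sites 134 were kept (32.2%), in the middle 267 (64.2%) and in the strongest 396 (95.2%). The median WT fold was 9.45 at kept sites and 5.89 at lost sites, and the median fragment count 22 compared with 13. Within ranges of equal strength, promoter sites were close to other STAT5 peaks. The weakest 3 deciles of STAT5 peaks were kept at 32.3% of promoter sites and 29.8% of all, the next 4 deciles at 67.0% and 66.8%, and the strongest 3 deciles at 96.3% and 97.1%.

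**Figure D5:**
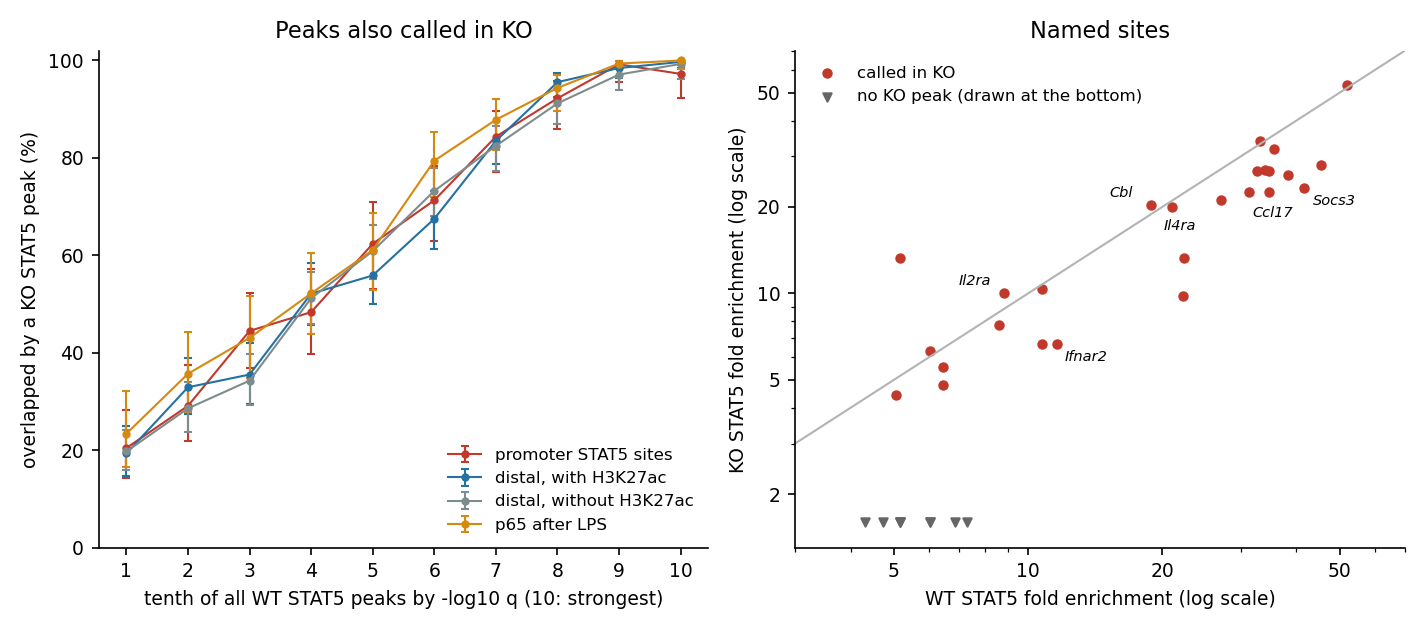
Left, percentage of WT STAT5 peaks also called in KO by decile of WT strength for promoter sites and the comparison classes, with 95% Wilson intervals. Right, WT and KO fold (log axes) of the sites named from the pathway lists and the strongest sites, with sites lacking a KO peak drawn as triangles at the bottom. The classes run together (promoter sites from 20.5% in the weakest decile to 97.2% in the strongest), most named sites lie below the line of equality, and those without a KO peak all had a WT fold of 7.30 or less.

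Retention of STAT5 was compared between sites that did and did not lose CTCF. STAT5 was kept at 72 of the 109 sites with CTCF in WT only (66.1%) and at 63.4% of sites with CTCF in neither genotype, a difference of 2.70 points (-7.04 to 11.4). Sites with CTCF in both genotypes kept it in 65.8%, but 20 of these 73 sites were pile-ups. Without pile-ups they kept STAT5 at 29 of 53 (54.7%, 41.5 to 67.3), compared with 72 of 108 sites with CTCF in WT only (66.7%), a difference of 11.9 points (-3.75 to 27.5). Sites with SMC1 in WT only kept STAT5 at 93 of 155 compared with 66.0% where SMC1 was called in both, a difference of -6.02 points (-14.8 to 2.46). The intervals of these pooled differences include 0 and are wide. By strength, sites with SMC1 in WT only and in both kept STAT5 at 29.1% and 27.95% in the weakest 416 sites. In the middle these shares were 61.9% and 66.9%, and in the strongest 87.9% (51 of 58) and 96.4% (190 of 197). With CTCF in WT only and in neither they were both 32.5% in the weakest. They were 76.7% and 62.8% in the middle, and 92.3% and 96.98% in the strongest. No interval was computed for differences within groups of strength.

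The pooled shares differed more by motif and marks. Sites with the motif kept STAT5 at 73.7% compared with 57.4% without, a difference of 16.4 points (11.02 to 21.5). By strength, the gap was seen in the weakest 416 sites, with 43.0% and 28.1%, and was small in the middle, with 64.8% and 63.8%, and in the strongest, with 95.9% and 94.3%. Sites with H3K4me3 were kept at 67.3% compared with 60.1%, a difference of 7.26 points (1.93 to 12.6), and sites with H3K27ac at 66.2% compared with 59.4%, a difference of 6.77 points (1.16 to 12.4). Within groups of strength these gaps varied. With and without H3K4me3 the shares were 34.3% and 30.3% in the weakest sites, 68.8% and 58.4% in the middle, and 95.1% and 95.3% in the strongest. With and without H3K27ac they were 30.2% and 35.4% in the weakest, where the order was the opposite, 66.9% and 59.2% in the middle, and 96.6% and 91.9% in the strongest.

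Where STAT5 was called in both genotypes, the fold was mostly lower in KO. Over 776 kept sites outside pile-ups the median fold was 9.45 in WT and 7.93 in KO, a median log2 ratio of -0.22 (quartiles -0.49 and 0.04), and 559 sites (72.0%) were lower in KO. Distal peaks had the same tendency, with a median of -0.33 with H3K27ac and -0.22 without, and peaks with p65 after LPS had -0.30. Fold divides by a background that differs with the library (1.33 fragments in WT and 1.70 in KO). The background was taken as the coverage of each library, so fragment counts in WT and KO are not on the same scale. Equal counts at a summit, here and at the named sites, do not mean equal enrichment. The cause of the shift to lower folds, common to all classes, was not tested.

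The strongest sites with H3K4me3 that had no KO peak, outside pile-ups, were Cndp2, a cytosolic dipeptidase gene, with a fold of 18.5 from 42 fragments, AC154187.2 and Mrpl11, a mitochondrial ribosomal protein gene, with 12.0 from 27 fragments each, Slfn10-ps with 11.6 and Gm26879, inside an intron of Traf5, with 11.2. Of these Mrpl11 and Slfn10-ps had CTCF in both genotypes, and AC154187.2 had it in WT and not in KO. In the opposite direction, 293 of 1088 KO promoter STAT5 peaks without p65 (26.9%, 24.4 to 29.6) had no WT peak, and they were weak as well, with a median fold of 5.18 compared with 7.77 for the others. Sites called in 1 genotype were thus weaker at the median in both directions. Not all lay near the calling limit. Of the middle 416 promoter sites by strength 267 were kept, and the WT fold of sites without a KO peak reached 27.99.

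Of the 3 inflammatory genes that the study singles out, Myd88, the adaptor of Toll-like receptors, had a promoter site, 72 bp from its start, with a fold of 4.72 from 10 fragments in WT and no KO peak nearer than 11306 bp. Trim25, a ubiquitin ligase of RNA sensing, had no called STAT5 peak at the promoter in either genotype. Its nearest summits lay 24958 bp (fold 12.9) away in WT and 24918 bp (fold 9.61) away in KO. The study, by contrast, reports from signal tracks that STAT5 bound the Trim25 promoter in WT and was lost there in KO. The called peaks used here do not show that binding, and signal tracks were not examined. The study also reports similar STAT5 in both genotypes at a downstream enhancer of Trim25, whose contact with the promoter was weaker in KO. Irak2, a kinase downstream of Myd88, had its nearest summit at 6492 bp (fold 6.44) in WT and at 30492 bp in KO. For Irak2 the study describes STAT5 at intronic enhancers rather than the promoter in WT, with less of it there in KO.

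The limits of the rule were close on both sides. The farthest peak edge among the sites lay 2498 bp from a start and the nearest left out lay at 2502 bp. The 86 sites within 250 bp inside the limit had a median fold of 6.80, with H3K4me3 at 26.7% and H3K27ac at 53.5%, and the 64 peaks just outside had 7.73, 39.1% and 64.1%. The smallest gap to a p65 peak of WTLPS was 71 bp, and 38 sites had such a peak within 1 kb.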

How the data were processed

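ChIP-seq of BMDCs was deposited as 30 peak lists, 1 for each antibody and condition (34 samples with 4 inputs, which had no list here). The submitters' processing notes name BWA 0.7.12, Picard 1.77, MACS2 2.1.2 and deepTools 3.1.3 and the build mm10, and the study's methods describe trimming, alignment to mm10, removal of duplicates and peak calling on paired-end fragments. Biological duplicates were made, and the study describes both peak calling per replicate and merging of replicates, so whether a list is a pool was not settled. CTCF, SMC1, H3K27ac and H3K27me3 peaks were filtered by the authors on stricter FDR thresholds than the others. The label and the methods give different catalogue numbers for the STAT5 antibody. Per the deposited lists, values are the fold enrichment (a ratio of fragments to local background, each with 1 added) and the -log10 of p-values and q-values from MACS2. The lists hold no read depths. The study states them for its libraries, and they were not used here.

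Sites were joined with other lists at an overlap of at least 1 bp, and promoters reached 2.5 kb up- and downstream from where the transcript with the longest exons begins (GENCODE vM21, 55413 genes). "Kept" means overlapped by a STAT5 peak of KO. Fragments at each summit were recovered from fold and -log10 p, which matched within 0.002 for 99.988% of WT and 99.985% of KO STAT5 peaks. The STAT5 lists held peaks down to a -log10 p of 4.22. No test across conditions was made, as each had 1 list. Calculations used Python 3.11.15, pandas 2.3.3, NumPy 2.4.6, SciPy 1.17.1 and matplotlib 3.10.9, and the recovery of fragments was tested on simulated data.

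The sites, gene lists and alternatives were chosen with earlier results of these data known. Named genes are all sites of the receptor and kinase, inhibitor and target lists, up to 4 of the strongest of every other list, the 10 strongest sites with H3K4me3 at the nearest protein-coding gene, the 5 strongest each without a KO STAT5 peak, with CTCF in WT and not in KO, and without H3K4me3 (strength by -log10 q), and the genes the study singles out. After the values were seen, pile-up sites were left out of these rankings, protein-coding promoters without H3K4me3 and the Bcl6 start were added, and the sequence windows were widened. A site among the 10 strongest with H3K4me3 is not reported here. Alternatives changed the promoter definition, the p65 rule, thresholds, overlap, motif and the coverage of the KO STAT5 list.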

Additional observations from a re-analysis of the deposited data

How the results depend on the processing

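Of 106 alternative values of the number of sites and of the shares overlapped, 58 stayed within the counting interval (or within 1.5 times, for the number) and 48 moved, and the cause of a move was not tested beyond what each alternative changes by construction. Promoters of 1 kb to either side gave 684 sites, with KO STAT5 at 66.8%, H3K4me3 at 63.3%, H3K27ac at 69.2%, CTCF at 17.5% in WT and 8.92% in KO, and SMC1 at 58.8% and 50.6%. With starts of all transcripts H3K4me3 was at 47.0%. Protein-coding promoters alone gave 761 sites, with H3K4me3 at 71.6%, H3K27ac at 72.7% and WT CTCF at 16.7%. With p65 not considered H3K27ac was at 68.8% and SMC1 at 60.8% in WT and 54.4% in KO. With a -log10 q of at least 10 there were 639 sites, with KO STAT5 at 87.8%, H3K4me3 at 55.1%, H3K27ac at 69.95%, KO CTCF at 9.08%, SMC1 at 57.0% and 50.1% and the motif at 49.5%. Without pile-up sites, an alternative chosen after seeing the data, KO CTCF was at 5.56%.

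Where at least 50% of the STAT5 peak had to be covered, KO STAT5 was at 60.7%, H3K4me3 at 47.2%, H3K27ac at 51.3%, CTCF at 10.7% in WT and 4.97% in KO, and SMC1 at 47.8% and 40.9%. With the STAT5 summit inside the other peak H3K4me3 was at 47.4%, H3K27ac at 51.4%, CTCF at 10.98% and 5.53%, and SMC1 at 49.0% and 41.9%. With other lists limited to their stronger 50%, KO STAT5 was at 40.9%, H3K4me3 at 45.3%, H3K27ac at 59.2%, CTCF at 10.1% and 5.29%, and SMC1 at 33.2% in both genotypes. The motif was found at 73.3% of sites with 1 mismatch allowed, at 18.99% within 25 bp and at 59.6% within 100 bp. No paired analysis was possible because each antibody and condition had 1 list and no result came from a test across samples. At the weakest sites few fragments stood behind a WT peak, and a missing KO peak there does not show missing binding. The KO STAT5 library was not the one with the lower background.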
